A study of Mus musculus with 24 samples.

Results

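The p53 target genes described here are Cdkn1a, Phlda3, Psrc1, Mdm2, Ccng1, Trp53inp1, Zmat3, Eda2r, Btg2 and Trp53 itself, 10 of the 20796 genes with a 3′ untranslated region (3′UTR) interval in the deposited tables. They were chosen by gene name, through the transcript that each interval carries. The choice was made with part of their pattern known: a fall of Cdkn1a, Phlda3 and Psrc1 between 0 and 540 min in control cells and its absence in cDKO cells. Those differences are therefore given below as a description with no test. Comparisons at 60 and 180 min, comparisons of the other members between genotypes, and the loss of conversions were tested, but since results of all 24 libraries were known when the genes were chosen, these p-values are not independent evidence.

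p53, encoded by Trp53, is a transcription factor held at a low level in unstressed cells by MDM2, a ubiquitin ligase that is itself a p53 target and so closes a feedback loop. On stress p53 accumulates and induces genes that stop the cell cycle (Cdkn1a, whose product p21 inhibits cyclin-dependent kinases; Btg2; Ccng1, encoding cyclin G1), that restrain AKT signalling (Phlda3) or that act in apoptosis, autophagy and RNA regulation (Trp53inp1, Eda2r, Zmat3). Many transcripts of this pathway, Mdm2 and Cdkn1a among them, are known to turn over quickly.

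The cells were mouse preleukemic cells, c-Kit+ fetal liver cells on a C57BL/6 background transduced with Meis1 and Hoxa9 retroviruses and grown in stem cell factor, IL-6 and IL-3. Control cells carried both floxed genes without Cre (Tut4 fl/fl; Tut7 fl/fl), and cDKO cells carried the same alleles with Vav-iCre, which is active in blood cells and deletes the terminal uridylyltransferases TUT4 and TUT7. In both genotypes RNA was labelled over 12 h with 4-thiouridine (4SU, 2.9 µM), which was then washed out, and cells were taken immediately (0 min) or after a chase of 60, 180 or 540 min. In this method, SLAM-seq, an incorporated 4SU is sequenced as C, and the conversion rate, the fraction of covered T positions showing C, drops as labelled RNA decays. There were 3 libraries in each of the 8 groups of genotype and time, 24 in all. In the labels the batch is named by the chase time. Genotypes were compared within it, whereas chase time and batch cannot be told apart. The labels number the replicates, which the study's methods describe as biological triplicates taken from separate animals or embryos, without tying a library to an animal.

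Libraries held 4371157 to 7018951 reads in 3′UTRs, and levels are given as CPM, read counts scaled to this total. At 0 min Tut4 had 76.8 ± 9.18 CPM (SD, n = 3) in control and 22.2 ± 6.91 in cDKO, and Tut7 had 40.1 ± 5.25 and 18.7 ± 1.82. The deleted exons are not given in the sources used here, so these 3′ reads do not check the deletion. The genotypes also differed in markers of cell type. Summed neutrophil markers (7 genes) ranged from 3933 to 4625 CPM over the control libraries and from 359 to 1116 over the cDKO libraries. Most of that sum was Elane and Prtn3. Cebpe went the other way (median 9.06 CPM in control, 33.4 in cDKO), and Camp and Ltf were near 0 in both. Summed mast cell and basophil markers (7 genes) ranged from 16.7 to 35.4 and from 147 to 323. Gata2, Cpa3 and Hdc were higher in cDKO. Mcpt8 (median 14.6 in control, 9.91 in cDKO) and Ms4a2 (6.19 and 5.99) were not, and Fcer1a was 0 in both. Of the erythroid markers, Hbb-bt ranged from 0 to 2.72 CPM in control and from 1303 to 2082 in cDKO, while Gata1, Epor and Hbb-bs stayed at or near 0 in both. Hoxa9 was abundant in every library, at 1951 to 6563 CPM. The Meis1 3′UTR had 0 reads in control and at most 5.28 CPM in cDKO. In bulk samples fewer cells of a type and less RNA per cell cannot be told apart, and the part of cell makeup in the differences below was not tested.

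Reads of each member came from its 3′UTR in the mm10 genome. The interval of Cdkn1a was chr17:29099394-29100722 on the plus strand, that of Phlda3 chr1:135768478-135769134 on the plus strand, and that of Psrc1 chr3:108387603-108388231 on the plus strand. No member's interval overlapped one of another gene. A search for the p53 response element in promoters is shown because the members are grouped by their regulator. The element is a pair of adjacent 10-base half-sites, and a match kept the core C and G of both with at most 2 mismatches elsewhere. It was looked for on the coding strand of RefSeq promoter windows (GRCm38.p6, the build of mm10, 250 bases before to 50 after each start), which held 8 of the 10 members, and the element reads alike on both strands. Matches were found in windows of Cdkn1a and Ccng1, each with 1 mismatch, and are shown in capitals with 5 bases on either side, 5′ to 3′ on the gene's strand. Cdkn1a had more than 1 window, and its match lay in the upstream one, chr17:29090729-29091028. The distance given for Cdkn1a is to the start in that window. The Cdkn1a window at chr17:29093519-29093818 held no match.

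Cdkn1a, chr17:29090928-29090947, plus strand, ending 31 bases before the start: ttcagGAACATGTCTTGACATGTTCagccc
Ccng1, chr11:40755462-40755481, minus strand, ending 175 bases before the start: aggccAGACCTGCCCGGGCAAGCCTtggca

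Of 27025 genes with such a window, 0.392% held a match with at most 2 mismatches and 0.0814% one with at most 1. A match describes the letters of the window and is not evidence of binding. The other 6 members with a window had no match there, which says nothing of elements elsewhere, such as in introns.

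Cdkn1a fell over the chase in control cells and stayed at a lower level in cDKO cells. In control it stood at 612, 662 and 591 CPM at 0 min, 586, 625 and 542 at 60 min, 534, 527 and 487 at 180 min, and 258, 302 and 261 at 540 min. In cDKO it stood at 234, 239 and 284 CPM at 0 min, 219, 206 and 319 at 60 min, 304, 232 and 383 at 180 min, and 252, 191 and 313 at 540 min. Every control library lay above every cDKO library at the first 3 times, and the genotypes overlapped at 540 min. The control mean at 180 min was still 83.0% of that at 0 min, and at 540 min it was 44.0%, so that most of the fall lay after 180 min. The cDKO mean at 540 min was 99.8% of that at 0 min. On the log2 scale the change from 0 to 540 min was -1.21 (SE 0.07) in control and -0.04 (SE 0.18) in cDKO.

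Phlda3, which encodes a pleckstrin homology domain protein that competes with AKT for membrane lipids, had the largest control fall of the 9 members with enough reads. Its control libraries held 31.4, 31.5 and 25.4 CPM at 0 min, 22.9, 34.1 and 33.1 at 60 min, 28.2, 30.1 and 28.8 at 180 min, and 7.22, 8.07 and 6.84 at 540 min. Its cDKO libraries held 3.20, 1.77 and 3.96 CPM at 0 min, 4.37, 3.00 and 6.47 at 60 min, 8.97, 4.28 and 6.60 at 180 min, and 3.62, 2.10 and 8.57 at 540 min. The control level was flat to 180 min and then dropped to 25.1% of its starting mean, while the cDKO level, resting on 10 to 48 reads per library, was low throughout. Its change from 0 to 540 min was -2.02 (SE 0.20) in control and 0.66 (SE 0.60) in cDKO on the log2 scale.

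Psrc1, encoding a microtubule-associated protein of the mitotic spindle, showed the same shape in control cells. Its control libraries held 79.98, 74.6 and 71.3 CPM at 0 min, 65.6, 69.9 and 61.1 at 60 min, 72.4, 94.6 and 84.3 at 180 min, and 36.3, 34.4 and 27.5 at 540 min. Its cDKO libraries held 10.5, 9.01 and 17.8 CPM at 0 min, 10.7, 8.0 and 6.85 at 60 min, 16.7, 12.6 and 17.7 at 180 min, and 15.4, 12.4 and 15.7 at 540 min. No control library overlapped a cDKO library at any of the 4 times. Its change from 0 to 540 min was -1.23 (SE 0.13) in control and 0.19 (SE 0.29) in cDKO.

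**Figure D1:**
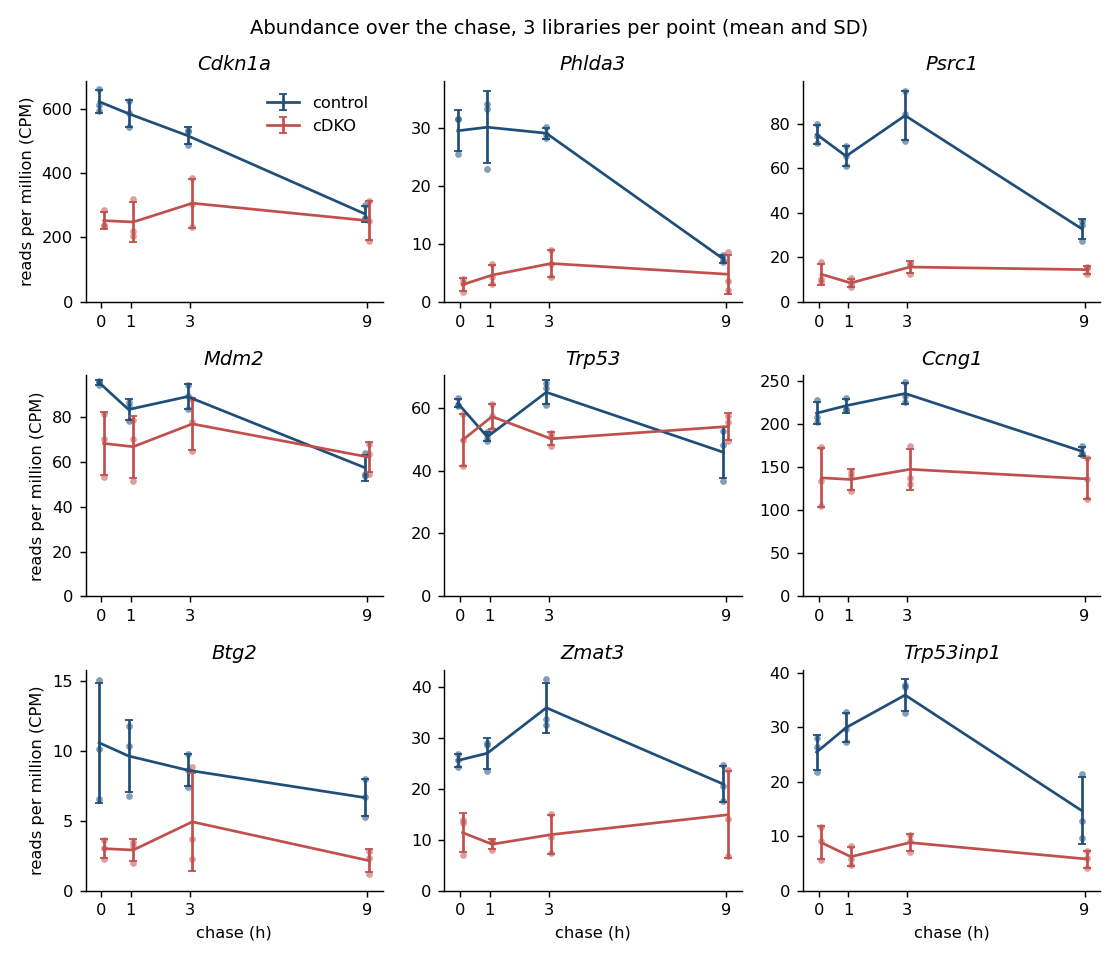
Abundance in CPM (y axis, from 0, its own scale in each panel) against hours of chase (x axis) for the 9 members with more than a few reads. Points are libraries, lines join the means of 3 libraries and bars are SDs, with control in blue and cDKO in red. Control levels of Cdkn1a, Phlda3 and Psrc1 dropped mainly between 180 and 540 min, and their cDKO levels stayed low.

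The regulators Mdm2 and Trp53 moved less. In control Mdm2 had 94.3, 95.6 and 96.1 CPM at the start and 53.5, 64.1 and 54.6 at 540 min, with no overlap. In cDKO it had 53.1, 70.1 and 81.3 CPM at the start and 63.5, 54.7 and 67.9 at 540 min, which overlapped. Trp53 had 60.6, 63.0 and 60.8 CPM at 0 min and 52.6, 36.8 and 48.2 at 540 min in control, against 58.1, 41.3 and 49.7 and then 49.4, 55.4 and 57.3 in cDKO. The log2 change over the chase was -0.76 (SE 0.10) for Mdm2 and -0.45 (SE 0.13) for Trp53 in control, and -0.17 (SE 0.18) and 0.09 (SE 0.15) in cDKO.

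Ccng1, Trp53inp1 and Zmat3 rose in mean to 180 min in control and ended below their start. Control means of Trp53inp1, which encodes a nuclear stress protein that binds p53, were 25.5 ± 3.24, 29.97 ± 2.73, 36.0 ± 2.89 and 14.7 ± 6.15 CPM (SD, n = 3) at 0, 60, 180 and 540 min. Its cDKO means lay between 5.83 and 8.85 CPM at the 4 times. Zmat3, encoding a zinc finger RNA-binding protein, had control means of 25.5 ± 1.29, 26.9 ± 3.03, 35.9 ± 4.95 and 20.9 ± 3.57 CPM. In cDKO it rested at 11.4 ± 3.76 CPM at 0 min and 14.9 ± 8.49 at 540 min, where replicate 3 alone reached 23.8. Ccng1 had 212 ± 13.1 and 168 ± 5.23 CPM at 0 and 540 min in control and 137 ± 34.3 and 136 ± 23.7 in cDKO.

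Btg2, an antiproliferative immediate-early gene, had few reads, 7 to 80 per library. Its control means fell from 10.6 ± 4.29 to 6.65 ± 1.35 CPM between 0 and 540 min with overlapping libraries, and its cDKO means were 3.01 ± 0.68 and 2.15 ± 0.83. Eda2r, encoding a receptor of the tumour necrosis factor receptor family, was barely detected: 13 reads in all 24 libraries, in 2 control and 3 cDKO libraries. Nothing can be said of its change at this depth. All 9 members with enough reads had a lower control mean at 540 than at 0 min, and in 7 of them, Cdkn1a, Phlda3 and Psrc1 included, every control library at 0 min lay above every one at 540 min, beside 13.8% of genes with a mean of at least 1 CPM. Those 3 were chosen on this fall, so nothing is read from the count. In cDKO 5 of the 9 means were lower, and in no member were the libraries free of overlap.

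The levels at 60 and 180 min lie outside the contrast of 0 and 540 min named in the choice of members. They were nevertheless known when the genes were chosen, so the p-values here are not independent evidence. At both times the cDKO libraries held less Cdkn1a: its log2 change was -1.26 (SE 0.15) at 60 min, an adjusted p of 0.00024 in edgeR's quasi-likelihood test against a threshold of 0.05, and one of -0.77 (SE 0.15) at 180 min (adjusted p = 0.0046). Phlda3 was 6.55-fold lower at 60 min (adjusted p = 0.00015) and 4.43-fold lower at 180 min (adjusted p = 0.00027). Psrc1 was 7.83-fold lower (adjusted p = 3.0e-06) and 5.40-fold lower (adjusted p = 7.7e-06). For these 3 genes no control library overlapped a cDKO library at either time, and under every alternative setting the adjusted p stayed below the threshold, at most 0.030.

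The other members differed in how they compared. Ccng1 was lower in cDKO, with log2 changes of -0.73 (SE 0.09) at 60 min and -0.69 (SE 0.11) at 180 min, with edgeR adjusted p of 0.00025 and 0.0017. Trp53inp1 was lower too, at -2.27 (SE 0.23) and -2.04 (SE 0.20), with adjusted p of 9.7e-05 and 7.5e-05. Zmat3 was lower at -1.58 (SE 0.20) and -1.72 (SE 0.25), with adjusted p of 0.00034 and 0.00083. Btg2 was 3.35-fold lower at 60 min (adjusted p = 0.0078), whereas at 180 min its change of -0.81 (SE 0.46) did not pass (adjusted p = 0.26), cDKO replicate 3 standing at 8.86 CPM beside 3.67 and 2.24. Without that library the change was -1.55 and passed (adjusted p = 0.017). Mdm2 passed at neither time, with log2 changes of -0.34 (SE 0.15, adjusted p = 0.13) and -0.23 (SE 0.13, adjusted p = 0.24), but did at 60 min without cDKO replicate 3 (adjusted p = 0.016).

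Trp53 itself changed sides between times. At 60 min its 3 control libraries (52.4, 50.3 and 49.6 CPM) lay below the 3 cDKO libraries (53.1, 61.2 and 57.2), a log2 change of 0.15 (SE 0.11) that did not pass (edgeR adjusted p = 0.37). At 180 min they lay above, at 66.2, 67.9 and 60.7 against 50.5, 51.9 and 47.9 CPM. That change of -0.39 (SE 0.11) passed with an adjusted p of 0.034 and was lost with DESeq2 (adjusted p = 0.055) and without control replicate 1 or 2 or cDKO replicate 1 or 3 (adjusted p from 0.064 to 0.11).

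In all, 7 of the 9 members tested passed as lower in cDKO at 60 min, where 10.4% of the 10094 genes tested did. At 180 min 7 of 9 did, where 9.98% of the genes tested did. Eda2r was not tested. None passed as higher. Cdkn1a, Phlda3 and Psrc1 were among those that passed at both times. Their levels at 60 and 180 min were known when they were chosen, so nothing is read from these counts. At 0 min the 6 members not chosen on that contrast and with enough reads held 4 that were lower, Ccng1, Trp53inp1, Zmat3 and Btg2 (log2 changes of -0.62, -1.50, -1.16 and -1.80, with edgeR adjusted p of 0.031, 0.0064, 0.016 and 0.018), beside 6.78% of all genes tested. Trp53inp1 passed under every alternative. Ccng1 lost its call without any 1 of the 3 control libraries or cDKO replicate 1 (adjusted p from 0.092 to 0.14), Zmat3 without any 1 of the 3 control libraries (0.059 to 0.079), and Btg2 without control replicate 1 or 2 (0.067 and 0.10). Mdm2, at -0.47 (SE 0.16, adjusted p = 0.084), passed without cDKO replicate 2 or 3 and with all 24 libraries in one fit (adjusted p from 0.021 to 0.042). Trp53, at -0.30 (SE 0.14), did not pass (adjusted p = 0.22).

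At 540 min 2 of these 6 members were lower in cDKO, beside 10.1% of all genes tested. They were Trp53inp1 (-1.33, SE 0.36, edgeR adjusted p = 0.028) and Btg2 (-1.62, SE 0.41, adjusted p = 0.023). Leaving out some single libraries ended either call: control replicate 2 or 3 or cDKO replicate 1 or 2 for Trp53inp1 (adjusted p from 0.064 to 0.11), and control replicate 1 or 2 or cDKO replicate 1 or 2 for Btg2 (adjusted p from 0.065 to 0.099). Ccng1 (-0.30, adjusted p = 0.12), Zmat3 (-0.48, adjusted p = 0.42), Mdm2 (0.11, adjusted p = 0.60) and Trp53 (0.24, adjusted p = 0.30) did not pass, Ccng1 doing so only without cDKO replicate 3 (adjusted p = 0.013).

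Among the 9 members with enough reads, the control mean was above the cDKO mean in 9, 8, 9 and 7 at 0, 60, 180 and 540 min. All control libraries lay above all cDKO libraries in 9, 7, 7 and 4 of them. Over genes with a mean of at least 1 CPM the share of such genes was 17.9%, 17.8%, 17.6% and 19.0%. Cdkn1a, Phlda3 and Psrc1, chosen on their change between 0 and 540 min, are in these counts. Their levels at 60 and 180 min were known at the choice too, so nothing is read from the counts at any chase time.

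**Figure D2:**
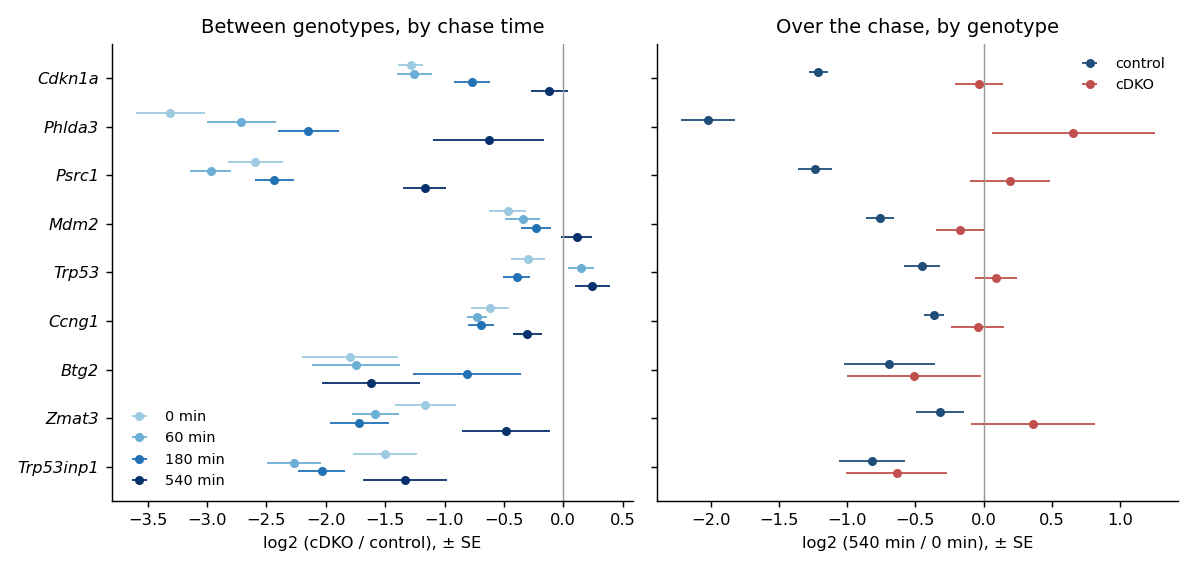
Log2 differences with their SE for 9 members (y axis): on the left cDKO over control at each of the 4 chase times, from light (0 min) to dark blue (540 min), and on the right 540 over 0 min in control (blue) and cDKO (red). Cdkn1a moved from -1.26 at 60 min to -0.12 at 540 min on the left, and Cdkn1a, Phlda3 and Psrc1 stand furthest left among the control points on the right.

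Psrc1 and Zmat3 lie on chromosome 3, whose genes were lower as a group in cDKO: the median log2 change of the 478 tested there was -0.48 at 60 min, against 0.01 on the other autosomes, and -0.52 against 0.02 at 180 min. The log2 change of Psrc1 less that median was -2.49 and -1.91, and that of Zmat3 -1.10 and -1.19. At 540 min Zmat3 differed from the chromosome's median by 0.03. Over the chase the chromosome's median moved by 0.02 in either genotype.

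At 0 min the members, like the library as a whole, carried fewer conversions in cDKO. Over all genes the conversion rate at 0 min was 1.64% ± 0.03 (SD, n = 3) in control and 0.737% ± 0.168 in cDKO, after the same labelling. Cdkn1a had 1.84%, 1.92% and 1.94% in control and 0.886%, 0.974% and 0.446% in cDKO. All 9 members had control rates above all cDKO rates, by 1.70-fold for Trp53 to 3.98-fold for Zmat3, each with an exact two-sided permutation p of 0.1, the smallest that 3 against 3 libraries allow. The library-wide rate was itself 2.23-fold higher in control. The share of all genes with no such overlap was not computed, so nothing is read from this count. After division by the library-wide rate, the genotypes overlapped in 8 of them and the median log2 ratio of the 9 went from -1.34 to -0.19. Trp53 alone then had higher values in all cDKO libraries, 1.08 ± 0.12 against 0.833 ± 0.098 times the library-wide rate (exact p = 0.1).

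The members lost conversions at different rates. In control the slope of the log2 conversion rate per hour was -0.85 (SE 0.11) for Phlda3, -0.71 (SE 0.12) for Btg2, -0.54 (SE 0.04) for Cdkn1a, -0.50 (SE 0.07) for Trp53inp1 and -0.46 (SE 0.05) for Mdm2, against a median of -0.41 over all genes tested. The slopes of Zmat3 (-0.41, SE 0.07), Ccng1 (-0.31, SE 0.04), Trp53 (-0.29, SE 0.05) and Psrc1 (-0.29, SE 0.04) lay at the median or were flatter. Those slopes whose SEs overlap, such as Cdkn1a with Trp53inp1 and Ccng1 with Trp53 and Psrc1, are not ordered. At 540 min no conversion was read in Phlda3 in control over 2610 covered T positions, which allows a rate of up to 0.115%, nor in cDKO over 1551 (up to 0.193%), these limits covering counting error only.

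No member passed the test of a difference between genotypes in the loss of conversions. For Cdkn1a the slope was -0.56 (SE 0.05) in cDKO, a difference of -0.02 per hour (SE 0.06, edgeR adjusted p = 0.88). For Phlda3 the cDKO slope was -0.74 (SE 0.18), a difference of 0.11 (SE 0.44, adjusted p = 0.92), a wide error that leaves room for a large difference either way. The cDKO slopes of Psrc1 (-0.15, SE 0.05), Mdm2 (-0.31, SE 0.05) and Btg2 (-0.22, SE 0.14) were flatter than in control by 0.14 (SE 0.07), 0.15 (SE 0.07) and 0.50 (SE 0.23), with adjusted p of 0.27, 0.26 and 0.25. At 540 min Btg2 held 0 conversions in control and 2 in cDKO, and Mdm2 had mean rates of 0.127% and 0.123%. No background rate was subtracted for the slopes, and its part in them was not tested. The median difference over all genes was 0.07, and 0.131% of the 9165 genes tested were called in either direction; of the members 0 were, with 3 at an unadjusted p below 0.05 (Psrc1, Mdm2 and Btg2) and 0 called by DESeq2. The adjusted p of every member stayed at 0.14 or above under every alternative.

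Half-lives were also taken from a single exponential fit. Mdm2 alone passed the study's limit on spread at 0 min, with 83.0 min in control and 101 min in cDKO. Its log2 ratio was 0.29, beside a median of 0.19 over the 3710 genes that passed. Subtracting a background rate of 0.1% gave 75.4 and 78.1 min for Mdm2. That log2 ratio was 0.05, beside a median of 0.04 over 2833 genes. Fitted replicate by replicate, the half-life of Cdkn1a was 97.4, 91.5 and 87.1 min in the control replicates against 97.6, 104 and 153 min in those of cDKO, the nearest values of the genotypes almost meeting (exact permutation p = 0.1). That of Mdm2 was 82.7, 86.6 and 80.2 min against 162, 86.6 and 89.0 min (exact p = 0.2). Without the limit on spread all 9 members gave values. They ran from 41.5 min for Btg2 to 344 min for Trp53 in control. In cDKO they ran from 76.0 min for Btg2 to 388 min for Psrc1. Their median log2 ratio was 0.27 beside 0.20 over 9214 genes. In control Psrc1 had 177 min, and Zmat3 had 246 min in control against 379 in cDKO. Phlda3 (128 and 127 min) and Ccng1 (278 in both) differed little in this fit, and Trp53 was shorter in cDKO at 278 min. Without 1 replicate of either genotype, the log2 ratio ran from -0.31 to 0.36 for Phlda3 and -0.27 to 0.49 for Ccng1. That of Trp53 stayed negative (-0.54 to -0.15). With a straight line through the logged rates, its start not fixed, Zmat3 turned to 128 min in control against 54.3 in cDKO. Trp53inp1 went from 106 and 124 min to 116 and 53.8. Cdkn1a, Psrc1, Mdm2 and Btg2 stayed longer in cDKO there and Trp53 shorter. By replicate Psrc1 had 189, 210 and 140 min in control against 185, 529 and 2594 in cDKO (exact permutation p = 0.3).

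**Figure D3:**
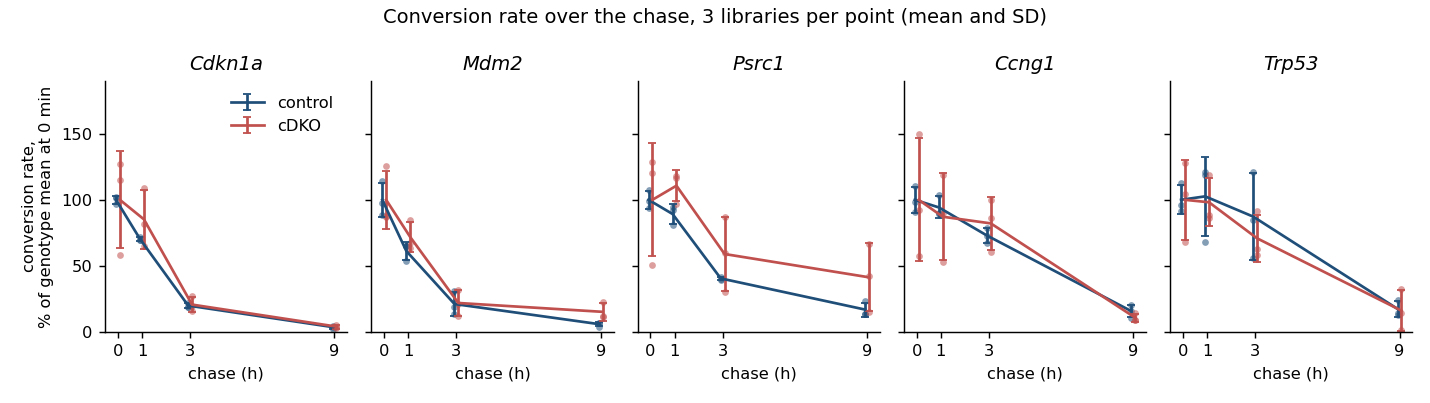
Conversion rate as a percentage of the genotype's own mean at 0 min (y axis, linear) against hours of chase for Cdkn1a, Mdm2, Psrc1, Ccng1 and Trp53. Points are libraries, lines join means and bars are SDs (n = 3). Both genotypes of Cdkn1a reached about the same level, 19.9% and 20.6% at 180 min.

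Reads were next split by whether they carried a conversion. A read without one is not necessarily RNA made after the 4SU was washed out, since at these rates most reads of labelled RNA carry none. The lower labelling in cDKO also moves reads to this class. Reads of Cdkn1a with a conversion fell in control from 170, 192 and 162 CPM at 0 min to 42.8, 34.5 and 33.0 at 180 min and 2.78, 4.63 and 4.13 at 540 min. Those without one stood at 442, 469 and 429 CPM at 0 min, 491, 493 and 454 at 180 min and 255, 297 and 256 at 540 min. The reads without a conversion thus held up for 180 min while those with one fell, and were lower at 540 min in all 3 libraries.

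The same held for the control libraries of Phlda3 and Psrc1. Reads without a conversion averaged 20.2 CPM at 0 min, 26.7 at 180 min and 7.38 at 540 min for Phlda3, and 42.5, 67.8 and 29.6 for Psrc1. In cDKO the reads of Cdkn1a without a conversion were 197, 197 and 260 CPM at 0 min, 290, 224 and 373 at 180 min and 250, 188 and 311 at 540 min, replicate 2 ending slightly below its start and the others above. Among the 9 members, reads without a conversion were higher in all control than in all cDKO libraries for 5, 7, 6 and 3 members at 0, 60, 180 and 540 min. Over genes with a mean of at least 1 CPM the share was 7.47%, 8.52%, 11.3% and 17.7%. These member counts also include Cdkn1a, Phlda3 and Psrc1, so nothing is read from them at any chase time.

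**Figure D4:**
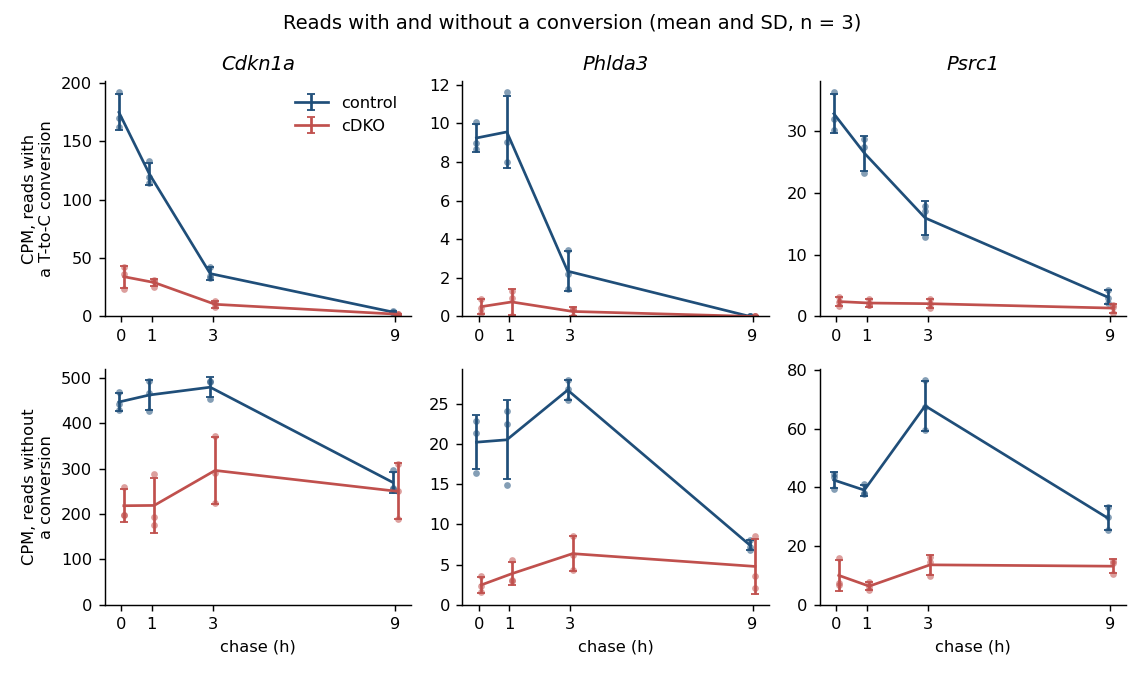
CPM of reads with a T-to-C conversion (top) and without one (bottom) against hours of chase for Cdkn1a, Phlda3 and Psrc1. Points are libraries, lines join means and bars are SDs (n = 3), with each y axis starting at 0. In control, reads with a conversion of Cdkn1a averaged 175 CPM at 0 min and 36.8 at 180 min, while those without one stood at 447 and 479.

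Other genes of the pathway were taken from a list of 45 further p53 targets, of which 44 had an interval. In control 12 of the 37 tested were lower at 540 than at 0 min, where 7.49% of all genes tested were, and 3 were higher, where 8.50% were, by edgeR's test. The largest changes were in Slc19a2, a thiamine transporter (-1.70, SE 0.36), Ddb2, a DNA damage recognition factor that rose (1.51, SE 0.36), Aen, an apoptosis-enhancing nuclease (-1.44, SE 0.18), Dyrk3 (-1.18, SE 0.24), Gtse1 (-1.12, SE 0.23) and Bbc3, which encodes the pro-apoptotic PUMA (-1.09, SE 0.23), with adjusted p from 6.5e-05 to 0.0080. The list's median log2 change was -0.20 beside 0.01 over all genes. In cDKO none of the 36 tested was called (6 at an unadjusted p below 0.05, 1 called by DESeq2), and the median was -0.03 beside 0.01. Only 0.118% of all genes were called in cDKO. The replicate number, which there paired the libraries, raised this to 1.27% as a block, with 1 of the 36 lower and 0 higher. That the list changed differently in the genotypes was not shown, since the interaction called 0 of its 38 genes, with 5 at an unadjusted p below 0.05, and 0 with the replicate block, with 10 at an unadjusted p below 0.05.

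Between genotypes the same list had 6 genes lower in cDKO and 1 higher of 38 at 0 min, 11 lower and 2 higher of 37 at 60 min, 8 lower and 2 higher of 37 at 180 min, and 4 lower and 1 higher of 38 at 540 min. Of all genes, 6.75%, 10.0%, 9.21% and 9.26% were higher at these times, the shares of lower genes being those given above. The genes lower at all 4 times were Tnfrsf10b, a death receptor (-2.23, SE 0.36 at 0 min and -1.38, SE 0.34 at 540 min), Trp53cor1, the long noncoding RNA transcribed beside Cdkn1a (-1.98, SE 0.19 and -0.99, SE 0.27), Pmaip1, encoding pro-apoptotic NOXA (-1.42, SE 0.17 and -1.31, SE 0.12), and Tigar, a regulator of glycolysis (-0.81, SE 0.19 at 540 min). Perp, a desmosomal p53 target, was the one gene higher at all 4 times, with 0 to 3 reads per control library and 17 to 216 per cDKO library.

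Among 19 regulators of p53, Hipk2, a kinase that phosphorylates p53, was higher in cDKO at every time, from 1.49 (SE 0.14) at 180 min to 2.17 (SE 0.19) at 540 min on the log2 scale. It was the only one of the 14 tested called at 0, 60 or 180 min, and Ep300 was lower at 540 min (-0.48, SE 0.09). In control Atm (0.67, SE 0.11), Chek2 (0.67, SE 0.09) and Trp53bp1 (0.36, SE 0.12), all of the DNA damage response, were higher at 540 than at 0 min, and Npm1 was lower (-0.60, SE 0.05). The cDKO changes had the same signs, with mean levels going from 53.2 to 78.4 CPM for Atm, 53.1 to 97.1 for Chek2, 40.8 to 49.5 for Trp53bp1 and 963 to 755 for Npm1. None of these passed in cDKO by edgeR, while with the replicate block Chek2 (0.84, SE 0.13, adjusted p = 0.015) and Npm1 (-0.39, SE 0.08, adjusted p = 0.039) did. Cdkn2a, whose products include p19Arf, a binder of MDM2, had 0 reads in all 12 control libraries and 7 to 78 reads in the cDKO libraries. The 0 reads allow up to 0.427 to 0.617 CPM in a control library. These 3′UTR reads do not tell which product of Cdkn2a they stand for. Cdkn2a had too few reads to be tested between genotypes and is named after its values were seen. Over the chase in cDKO it did not pass in edgeR with the replicate block (-0.20, SE 0.30, adjusted p = 0.77). Its cDKO level differed by replicate, at 13.6 to 14.6 CPM in replicate 1, 6.20 to 10.8 in replicate 2 and 1.32 to 1.61 in replicate 3. Replicate 3 also held the highest cDKO level of Cdkn1a and of Mdm2 at all 4 times, and the lowest library-wide conversion rate at 0 min.

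Cell cycle genes known to be repressed through p21 and the DREAM complex were taken as a list of 23, all tested. In cDKO 2, 3 and 4 of them were lower at 0, 60 and 180 min, where 6.78%, 10.4% and 9.98% of all genes were, Ccna2 and Cenpe each time, and 1 was higher, Birc5 at 180 min (0.25, SE 0.07). At 540 min 6 were higher, where 9.26% of all genes were, the largest changes being in Birc5 (0.54, SE 0.08), Aurkb (0.49, SE 0.12), Nusap1 (0.49, SE 0.13), Cdk1 (0.46, SE 0.07) and Plk1 (0.36, SE 0.08), and Cenpe was lower (-0.36, SE 0.11). In control 6 were lower at 540 than at 0 min, where 7.49% of all genes were, Ccnb1 the most (-0.60, SE 0.08), and 0 higher. In cDKO 0 were called over the chase, where 0.118% of all genes were. There 2 had an unadjusted p below 0.05, and DESeq2 and the replicate block each called 0. The interaction also called 0 of the 23, with 5 at an unadjusted p below 0.05. With the replicate block it called 0, with 8 below 0.05. A different change of this list in the genotypes was thus not shown.

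**Figure D5:**
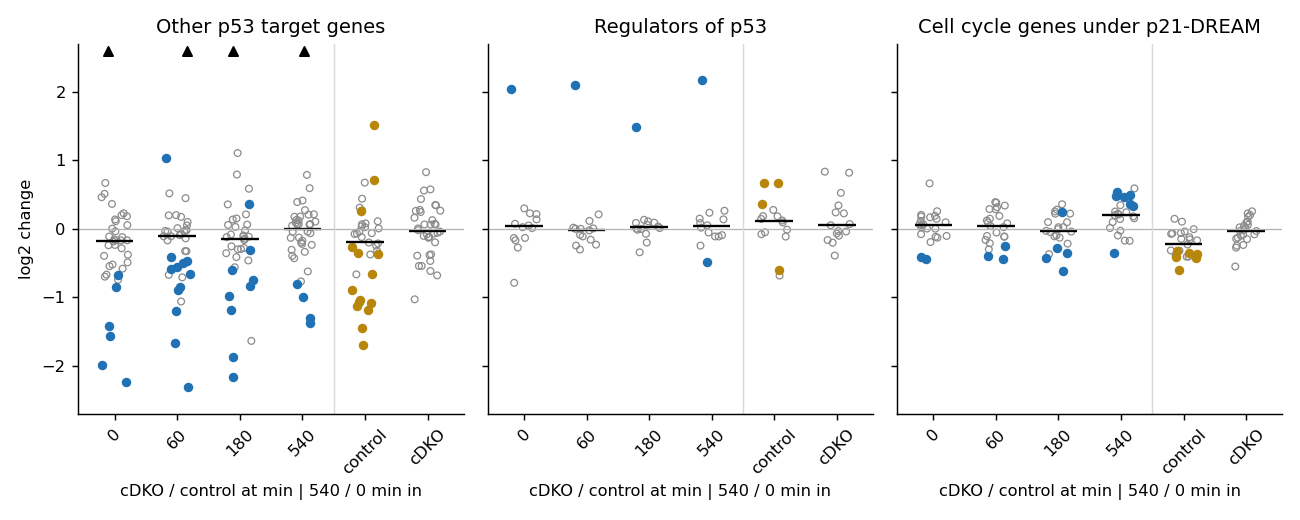
Log2 change (y axis) of each tested gene of 3 lists, for cDKO over control at 4 chase times and for 540 over 0 min in each genotype (x axis). Filled points passed the adjusted p threshold of 0.05, open points did not, bars are list medians, and black triangles mark Perp, which lies above the axis at 6.60 to 8.14. The control medians over the chase were -0.20, 0.12 and -0.23 for targets, regulators and cell cycle genes.

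Over the 24 libraries the gene whose level moved most like that of Cdkn1a, among 8282 with a mean of at least 10 CPM, was another member, Phlda3 (Pearson r = 0.95 of log2(CPM + 1); 0.96 within the 12 control and 0.77 within the 12 cDKO libraries). Trp53inp1, Ccng1, Psrc1 and Mdm2 ranked 2, 4, 6 and 14 (r from 0.85 to 0.90), Zmat3 51 and Trp53 1586. Phlda3 and Psrc1 were chosen for sharing this pattern, so their r restates the choice. The 6 other genes most like it were H1f0 (0.89), Ccna2 (0.88), Naa60 (0.87), Pla2g12a (0.87), Trp53cor1 (0.86) and Fabp5 (0.86). These values follow both the genotype and the chase, which all 24 points share. Within the cDKO libraries alone r was 0.42 for Psrc1, 0.33 for Ccna2 and 0.91 for Fabp5.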

How the data were processed

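The authors made 3′-end libraries (QuantSeq FWD), sequenced as single reads, and ran SlamDunk (0.4.3 per the file headers) over 3′UTR intervals of mm10. Their deposited tables give whole-number counts of reads, converted reads, conversions and covered T positions per interval, a conversion rate as a deposited fraction and a deposited CPM scaled to filtered reads (9552906 to 13882269 per library). Mapping, multimapping and variant filters change which reads are counted. Libraries carried no molecular identifiers.

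From these counts, the longest of overlapping intervals of a gene was kept, and intervals were summed by gene through RefSeq accessions (GRCm38.p6), which matched 99.17% of 39419 lines. Levels and rates were recomputed from the sums. A count test followed the study's own groups: edgeR 4.0.16 quasi-likelihood (TMM, filterByExpr) with Benjamini-Hochberg adjustment over all genes and a threshold of 0.05, each contrast on its own libraries. Conversion loss was the genotype by hour term on conversion counts with covered T positions as offset (at least 100 per library and 50 conversions in all), over 24 libraries. Half-lives were fitted by least squares, with an SD at 0 min below 0.3 and a mean above 0.8. Single values were compared by exact two-sided permutation tests. Scripts were tested on simulated data. Alternatives were DESeq2 1.42.0, its size factors, no filter, all intervals, one fit of all libraries, a replicate block, each library left out, and other rates and offsets.

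Same-numbered libraries deviated together across the chase in cDKO (r from 0.27 to 0.77) but not in control (-0.03 to 0.15) or between genotypes (-0.07 to 0.11), a pairing that comes from the data and the numbers in the labels. Replicates of a group differed beyond sampling noise (chi-square per degree of freedom 3.31 to 26.1). Members and gene lists were chosen with earlier results of these data known. Genes named from a list were those called with the largest changes, at most 6 per list and contrast. Coordinates of another mouse assembly were not used here.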

Additional observations from a re-analysis of the deposited data

Results flagged for a closer look

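By replicate number, Phlda3 was lower at 540 than at 0 min in each of the 3 control pairs and higher in each of the 3 cDKO pairs. The cDKO libraries of the 2 times overlapped, with a log2 change of 0.66 (SE 0.60) and 10 to 48 reads per library, and the numbers do not pair the control libraries. The log2 changes differed by 2.69 (SE 0.57) between genotypes, a difference that was not tested because this contrast chose the gene.

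Trp53 was higher in all cDKO than in all control libraries at 60 min, by 0.15 on the log2 scale, and lower in all of them at 0 and 180 min. This difference between times was not tested.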

How the results depend on the processing

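Among the members' values, 575 under an alternative setting kept direction and side of the threshold, 24 lost a call, 6 gained one, 8 turned a direction and 14 moved by more than the spread. The calls of Cdkn1a, Phlda3 and Psrc1 at 60 and 180 min held under every alternative. The counts of genes called were less steady. With all 24 libraries in one fit 2297 genes were called at 0 min in place of 1371. Over the chase in cDKO 12 genes were called, against 131 with DESeq2 and 129 with the replicate block. The genotypes' chase changes differed in 0 genes by edgeR (555 at an unadjusted p below 0.05, 6 with DESeq2 and 6 with the block). Conversion loss differed in 12 genes, against 200 with DESeq2, 22 with the library-wide rate in the offset, 1 without the 540 min libraries and 59 with the replicate block. The block changed 2 member calls, Trp53inp1 and Btg2 at 540 min (adjusted p = 0.074 and 0.056). The slope differences of Cdkn1a and Ccng1 turned to 0.0080 and 0.068 without the 540 min libraries. The median log2 ratio of 0 min rates was -1.34, and -0.19 after division by the library-wide rate.

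With each library left out in turn, calls between genotypes ranged from 645 to 2237 at 0 min (645 to 717 without a control library, 2237 without cDKO replicate 2), from 1332 to 2324 at 60 min (1332 and 1355 without control replicates 2 and 3), from 1181 to 2145 at 180 min (1181 to 1258 without a control library) and from 1195 to 2033 at 540 min (1195 and 1277 without control replicates 1 and 3). They ranged from 991 to 1703 over the chase in control (991 and 1044 without replicates 2 and 3 at 0 min), from 0 to 5 in cDKO, where each library moved the count, from 0 to 1 for the difference, and from 3 to 11 for conversion loss (3 to 5 without any control replicate or cDKO replicate 3). The half-life ratio of members that passed ranged from -0.12 to 0.65 (log2), the members passing being from 1 to 5, and the 0 min rate ratio from -1.42 to -1.07. The slope difference per hour, called for no member, crossed 0 for Cdkn1a (-0.044 to 0.0021), Phlda3 (-0.036 to 0.20), Ccng1 (-0.073 to 0.011), Trp53inp1 (-0.50 to 0.024) and Trp53 (-0.086 to 0.035). The cause of these changes was not tested. Depth limits Eda2r, Btg2 and the cDKO values of Phlda3.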
